A study of Mus musculus with 10 samples.

Results

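Serpins are a family of proteins built on a shared fold, most of which block serine proteases. Transcripts of 7 serpin genes (Serpina3n, Serpine2, Serping1, Serpinb6a, Serpinb1a, Serpinf1 and Serpinh1) were followed in mouse hearts with a knockout of Larp7 and in controls. The knockout was of the whole embryo or, in the adult, aimed at cardiomyocytes. LARP7 is an RNA-binding protein that stabilises the noncoding RNA 7SK. The genes were chosen by symbol, with results of these samples already known, and all 7 are among the 15989 genes listed for the adult heart. At embryonic day E15.5 6 of them are among the 15498 genes listed, and Serpinb1a is not. A gene that is not listed is not thereby shown to be unexpressed, since the embryonic list also lacks the cardiomyocyte markers Myh6 and Ryr2. All mice were of the C57BL/6 strain. The embryonic groups were 3 samples of whole Larp7-/- hearts (KO) and 3 samples of whole Larp7+/+ hearts (WT) at E15.5. The adult groups were 2 samples of heart apex from Myh6Cre;Larp7f/f mice (mCKO) and 2 from Larp7f/f mice (CTR), all 4 months old. Both adult groups thus carry floxed Larp7 alleles, and the label of the controls names no Cre, so that Cre itself and the loss of Larp7 cannot be told apart. Cre under the Myh6 promoter acts in cardiomyocytes, so other cells of the apex keep their Larp7. The labels do not tie samples to single animals, so errors and p-values rest on spread between samples, which may be technical. In the limma fits that spread is pooled in part over genes, and a variance for rounding is added.

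An inhibitory serpin presents an exposed loop as bait, and a protease that cuts the loop is trapped by a large change of the serpin's shape. Some members have lost this activity: Serpinh1, also called HSP47, is a chaperone of the endoplasmic reticulum that binds folded procollagen, and Serpinf1, pigment epithelium-derived factor, is a secreted protein known for restraining new blood vessels. In the heart, secreted serpins are known for limiting clotting, plasminogen activation and complement, and intracellular serpins of clade B for protecting cells from their own or from leukocyte proteases.

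The genes lie apart in the genome except for both clade B members. In the mm10 build (GENCODE annotation), Serpina3n spans chr12:104406729-104414329 on the plus strand, and the others are on the minus strand: Serpine2 at chr1:79794197-79861180, Serping1 at chr2:84765387-84775444, Serpinh1 at chr7:99345376-99353239, Serpinf1 at chr11:75409769-75422701, Serpinb1a at chr13:32842092-32851185 and Serpinb6a at chr13:33917918-34002794. All are protein-coding genes. Promoter sequence was at hand for 5 of the 7 genes (RefSeq, build GRCm38.p6, the same build as mm10). The 100 bases before the start site are shown for these 5, so that the promoter of the serpin with the largest adult difference, Serpina3n, can be set beside the others. These RefSeq start sites can differ from the ends of the GENCODE spans. The Serpine2 window lies wholly within its GENCODE span, and most of the Serpinf1 window does too. Capitals mark letters that match one of the motifs searched on both strands: the STAT motif TTCNNNGAA, the heat shock motifs TTCNNGAA and GAANNTTC, the interferon motif (GAAA, any 2 bases, GAAA), the TATA box TATAAA, the GC box GGGCGG and the CCAAT box.
Serpina3n, chr12:104406608-104406707, plus strand: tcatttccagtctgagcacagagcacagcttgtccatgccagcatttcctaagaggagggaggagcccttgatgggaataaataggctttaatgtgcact
Serpinf1, chr11:75422624-75422723, minus strand: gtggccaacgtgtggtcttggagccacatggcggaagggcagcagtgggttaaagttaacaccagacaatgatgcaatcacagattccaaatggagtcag
Serpine2, chr1:79858666-79858765, minus strand: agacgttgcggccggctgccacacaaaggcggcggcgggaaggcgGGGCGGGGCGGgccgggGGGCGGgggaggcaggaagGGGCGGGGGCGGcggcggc
Serpinh1, chr7:99353240-99353339, minus strand: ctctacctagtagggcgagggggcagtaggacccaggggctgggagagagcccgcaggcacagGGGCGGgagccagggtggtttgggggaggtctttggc
Serpinb6a, chr13:34002795-34002894, minus strand: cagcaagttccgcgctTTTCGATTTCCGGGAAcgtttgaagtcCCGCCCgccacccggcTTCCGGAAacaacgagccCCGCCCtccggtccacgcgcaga

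The printed stretches of Serpina3n and Serpinf1 hold no match to these letters, which says only that the letters are not in the window. Farther from its start Serpinf1 has 3 CCAAT boxes, at 241, 160 and 148 bases before the start site. In Serpine2 5 GC boxes lie in the last 55 bases before the start, some sharing letters with the next, whereas Serpinh1 has 1. In Serpinb6a, shown at the start site that lies farthest upstream, the interferon motif, 84 bases before the start, shares letters with a STAT motif at 77 bases, and a heat shock motif stands at 41 bases. Among 32851 promoter windows of 300 bases, 35.7% hold a GC box, 37.4% a CCAAT box, 8.3% the STAT motif, 8.52% and 7.86% the heat shock motifs, and 3.44% the interferon motif. These matches are a description of sequence and not evidence of binding.

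Values are per-million values that the authors rounded to whole numbers, each sample summing to between 998498 and 1001508, so sequencing depth is unknown and a value of a few units rests on coarse steps. Within a gene, each knockout value and the control value with its number sum to the same total for every number, to within 2 units, in 8328 of 8366 E15.5 genes and 8642 of 8658 adult genes with a mean of at least 10. The totals of all 6 embryonic and all 7 adult serpin genes met this. The SDs of both groups of a gene are therefore nearly equal and are not independent estimates. Larp7 itself was 45, 54 and 40 in KO hearts, against 96, 88 and 103 in WT hearts (log2 change -1.04, SE 0.17, limma adjusted p = 0.00163). It was 26 and 24 in mCKO apex, against 26 and 28 in CTR apex (log2 change -0.11, limma adjusted p = 0.934). The adult table therefore does not check its genotype labels. Levels are compared between samples of a gene and not between genes. Changes are given as knockout against control on the log2(value + 1) scale from limma, with SE. The 7 serpins were chosen with these same comparisons known, so their values and the counts of their calls are a description, and no p-value is given for them.

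Serpina3n, a secreted inhibitor that rises in inflammation and is related to human alpha-1-antichymotrypsin, had the largest adult difference of the 7. It was 54 and 65 in mCKO apex, against 26 and 15 in CTR apex. Both mCKO samples lay above both CTR samples, and the means of 59.5 ± 7.78 in mCKO and 20.5 ± 7.78 in CTR (SD, n = 2 each) differed 2.9-fold, a log2 change of 1.54 (SE 0.16). That SE rests almost wholly on spread pooled over other genes. The authors' deposited table gives a log2 fold change of 1.47 for it, with a wider SE of 0.51. In the embryo the gene was at the bottom of the scale, with 2, 1 and 1 in KO hearts and 0, 0 and 1 in WT hearts. The embryonic groups overlapped and no fold is given there.

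Serpine2, also called protease nexin, inhibits thrombin and the plasminogen activators at the cell surface. It was 261, 301 and 222 in KO hearts, against 159, 120 and 198 in WT hearts. Every KO heart lay above every WT heart, although the lowest KO value and the highest WT value were 24 units apart. The means were 261 ± 39.5 in KO and 159 ± 39.0 in WT (SD, n = 3 each), 1.64 times as high in KO, with a log2 change of 0.73 (SE 0.20). In the authors' deposited table Serpine2 has a log2 fold change of 0.65 (SE 0.21). The adult samples were close to each other, at 28 and 25 in mCKO apex and 21 and 24 in CTR apex, a log2 change of 0.23 (SE 0.17).

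Serping1, the C1 inhibitor, blocks the first proteases of complement and the kallikrein that releases bradykinin. In the adult it was 231 and 251 in mCKO apex, against 197 and 178 in CTR apex, without overlap. Its means were 241 ± 14.1 in mCKO and 188 ± 13.4 in CTR (SD, n = 2 each), a log2 change of 0.36 (SE 0.14). In the embryo it was 36, 41 and 46 in KO hearts and 39, 34 and 29 in WT hearts, so that the groups overlapped (log2 change 0.27, SE 0.18).

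The clade B serpins act inside cells. Serpinb6a, an inhibitor of cathepsin G among other proteases, was 120 and 130 in mCKO apex, against 103 and 92 in CTR apex (log2 change 0.36, SE 0.15), with no overlap. In the embryo it was 65, 65 and 71 in KO hearts, against 62, 62 and 56 in WT hearts (log2 change 0.16, SE 0.16), a gap of 3 units between the groups. Serpinb1a, an inhibitor of neutrophil elastase and cathepsin G, was 5 and 6 in mCKO apex, against 5 and 3 in CTR apex. These 4 low values touch, and the log2 change of 0.40 (SE 0.33) is carried by steps of 1 or 2 units.

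Of the non-inhibitory members, Serpinf1 was higher in the knockout of both models. It was 24, 28 and 30 in KO hearts, against 17, 14 and 13 in WT hearts, and 65 and 52 in mCKO apex, against 33 and 46 in CTR apex. In neither model did the groups overlap, and the ratio of means was 1.86 in the embryo and 1.48 in the adult. The log2 changes were 0.86 (SE 0.20) and 0.57 (SE 0.15). Serpinf1 has in the authors' deposited table log2 fold changes of 0.83 for the embryo and 0.50 for the adult apex. Their SEs there are wider, at 0.44 and 0.43.

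Serpinh1 differed by a small proportion. It was 2284, 2612 and 2337 in KO hearts, against 2219, 1893 and 2167 in WT hearts. The groups did not overlap, but the means of 2411 ± 176 in KO and 2093 ± 175 in WT (SD, n = 3 each) differed 1.15-fold, a log2 change of 0.20 (SE 0.19). In the adult it was 346 and 268 in mCKO apex and 254 and 333 in CTR apex, with overlap and a log2 change of 0.07 (SE 0.14).

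**Figure D1:**
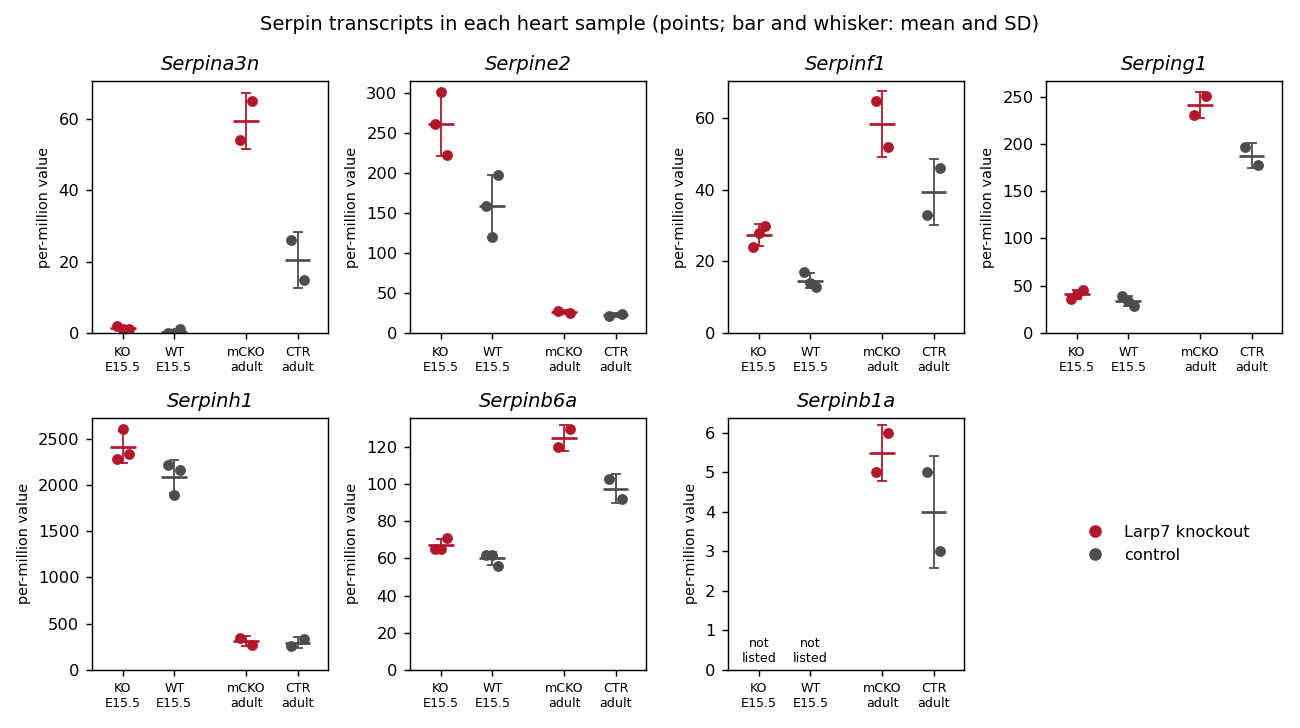
Per-million value (y axis, linear, own scale for each gene) of the 7 serpins in every sample of the KO and WT groups at E15.5 and the mCKO and CTR groups in the adult; points are samples, bars and whiskers the mean and SD. Serpina3n stands at 54 and 65 in mCKO apex and at 0 to 2 in all embryonic hearts, whereas Serpinh1 is at 1893 or more in every embryonic heart and at most 346 in the adult.

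Counted together, 4 of the 6 embryonic serpins (Serpine2, Serpinf1, Serpinh1 and Serpinb6a) had every KO heart above every WT heart, which holds for 19.3% of all 13609 tested genes and for 25.1% of those with a mean of at least 8. In the adult 5 of 7 (all but Serpinh1 and Serpinb1a) had both mCKO samples above both CTR samples, against 29.3% of the 14835 tested genes and 35.7% of those with a mean of at least 8. In 0 serpins did every knockout sample lie below every control, which 8.75% of tested genes showed in the embryo and 12.8% in the adult. All 6 and all 7 passed the filter on low values. Called at an adjusted p under 0.05 in limma, fitted over all genes, 1 of 6 serpins was higher in KO hearts (Serpinf1), where 0.478% of tested genes were. In the adult 2 of 7 were called higher (Serpina3n and Serpinf1), where 2.3% of tested genes were, and 0 serpins were called lower, beside 0.0955% of tested genes in the embryo and 0.944% in the adult (either direction 0.573% and 3.24%). Nothing is read from these counts, because the 7 were picked with these comparisons known. Their log2 changes had a median of 0.50 in the embryo and 0.36 in the adult apex, beside 0.11 and 0.08 over all tested genes. The embryonic median counts Serpina3n, whose values of 0 to 2 raise it. The other embryonic log2 changes were 0.86 (Serpinf1), 0.73 (Serpine2), 0.27 (Serping1), 0.20 (Serpinh1) and 0.16 (Serpinb6a). In the adult each gene keeps 1 residual degree of freedom, so that its SE rests almost wholly on spread pooled over other genes. A fit without the variance added for rounding, and fits of all samples without the replicate block, called 0 of the 7 in the adult. With 1 adult sample left out and no replicate block, 2 or 3 of the 7 were called. At E15.5 the number called was between 0 and 2 over the other settings.

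**Figure D2:**
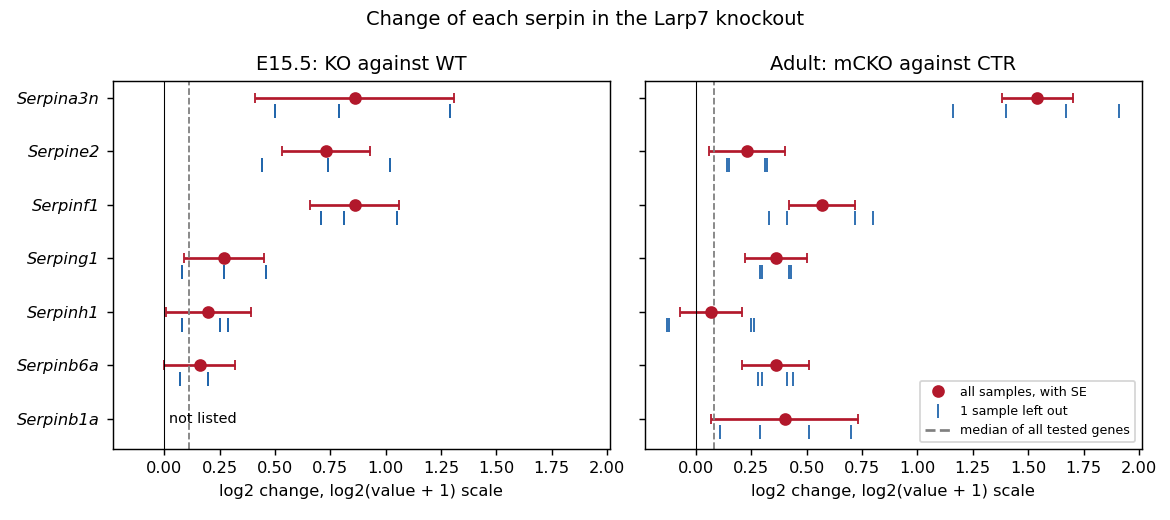
Log2 change of each serpin (x axis, log2(value + 1) scale) in KO against WT hearts at E15.5 (left) and mCKO against CTR apex in the adult (right); points and whiskers are the estimate and SE with all samples, blue ticks the estimates with 1 sample left out, the dashed line the median of all tested genes. Serpina3n in the adult keeps a change of 1.16 or more whichever sample is left out, whereas the ticks of adult Serpinh1 lie on both sides of 0.

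The estimates depended on single samples to different degrees. With 1 adult sample left out the log2 change of Serpina3n ran between 1.16 and 1.91, and that of Serpinf1 between 0.33 and 0.80. Adult Serping1 (0.29 to 0.43) and Serpinb6a (0.28 to 0.44) varied least, and adult Serpinh1 ran between -0.13 and 0.26. At E15.5 Serpinf1 ran between 0.71 and 1.05 and Serpine2 between 0.44 and 1.02. Without number 3 of either group the 1 serpin called at E15.5 was Serpine2 in place of Serpinf1. Serping1 had 0.08 to 0.46, Serpinh1 0.08 to 0.29 and Serpinb6a 0.07 to 0.20 there.

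Reads of a few members could be shared with close relatives. In the annotated transcripts 6.9% of the distinct 50-base words of Serpina3n also occur in another gene, most of them in relatives of the Serpina3 cluster such as Serpina3g. Of Serpinb1a 2.81% are shared, chiefly with Serpinb1b and Serpinb1c, and of Serpinb6a 0.751%. Serpinf1, Serping1 and Serpinh1 share none and Serpine2 0.0728%. The Serpina3 relatives were low in the adult: Serpina3g was 2 and 1 in mCKO and 1 and 1 in CTR apex, Serpina3f 2 and 2 in mCKO and 0 and 0 in CTR. In the embryo Serpina3g was 6, 3 and 4 in KO and 1, 4 and 2 in WT hearts, where Serpina3n itself was 0 to 2. Whether reads were shared was not tested. Serpinb6a lies over 3 genes of the opposite strand (Nqo2, Ripk1 and 1110046J04Rik), and the sources at hand do not say whether counting used strand, so its value is uncertain.

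The rest of the family was sparse. Besides the 7, 24 serpin genes are listed for the embryo and 16 for the adult apex. Of all serpins listed, 19 of 30 embryonic and 11 of 23 adult ones never exceeded a value of 2. With angiotensinogen (Agt), a serpin without inhibitory activity, 12 of these other genes could be tested in each model. In KO hearts limma called 0, and 2 had an unadjusted p under 0.05, as did 13.9% of all 13609 tested genes, with a median log2 change of 0.19. In the adult 1 of 12 was called, against 2.3% of all genes called higher, and the median was 0.32. Over the other adult settings 0 to 3 were called, the 3 without number 1 of CTR. Serpinb9, an inhibitor of granzyme B, was 32 and 36 in mCKO apex, against 29 and 24 in CTR apex, and 15, 17 and 16 in KO hearts, against 13, 10 and 11 in WT hearts. Its groups did not overlap in either model and it did not pass the test (limma adjusted p = 0.319 and 0.353). Serpinb6b, the neighbour of Serpinb6a listed in the adult, was 50 and 59 in mCKO and 45 and 37 in CTR apex (limma adjusted p = 0.151). Serpini1, neuroserpin, was 9 and 8 in mCKO and 9 and 10 in CTR apex, and 3 in every KO and 4 in every WT heart.

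The adult calls of the gene lists that follow depended on the fit. Of 16 list genes called, 4 kept their call in a fit of all samples without the replicate block, among them Timp1, Pcolce and P4hb. Without the variance added for rounding 0 did, with neither 1 did, and with a prior without trend Timp1, Lcn2 and Thbs1 did (limma adjusted p up to 0.697). With 1 adult sample left out 13 or 14 of the 16 kept their call. Those fits also had no replicate block, so the sample and the block changed together. In KO hearts 0 to 3 genes of each list were called over the other settings.

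No protease or receptor on which these serpins act passed the test in the main fit of either model. Of 22 tested genes in the adult 0 were called higher and 1 lower (median log2 change 0.12, limma), beside 2.3% and 0.944% of all tested genes. With 1 sample left out 2 or 3 were called higher. The gene that fell is no protease: vitronectin (Vtn), an adhesive glycoprotein of plasma and matrix, was 16 and 13 in mCKO apex, against 22 and 24 in CTR apex (log2 change -0.64, SE 0.19, limma adjusted p = 0.0276). It was not called without number 2 of mCKO (limma adjusted p = 0.052). The thrombin receptor F2r was 51 and 50 in mCKO, against 36 and 36 in CTR (limma adjusted p = 0.0588). The plasminogen activators were Plat, at 17 and 20 in mCKO and 17 and 15 in CTR, and Plau, at 6 and 6 in mCKO and 6 and 4 in CTR. Lrp1, the receptor that clears serpin-protease complexes, was 338 and 250 in mCKO and 178 and 266 in CTR. In KO hearts 0 of 16 passed in limma, and 2 had an unadjusted p under 0.05, beside 13.9% of all tested genes. Plat was 71, 80 and 80 in KO hearts, against 70, 61 and 61 in WT hearts. The leukocyte proteases Elane and Ctsg, known targets of the clade B members, are listed in neither table.

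Among complement genes 4 of 21 tested rose in the adult mCKO apex and 0 fell (median log2 change 0.36, limma), beside 2.3% of all genes called higher. C3, the central component, was 549 and 631 in mCKO apex, against 394 and 313 in CTR apex (log2 change 0.74, SE 0.14, limma adjusted p = 2.81e-05). Masp1, a protease of the lectin pathway that Serping1 inhibits, was 24 and 20 in mCKO, against 10 and 14 in CTR (log2 change 0.83, SE 0.20, limma adjusted p = 0.00176). C4b, the gene of complement component C4, was 69 and 54 in mCKO, against 34 and 48 in CTR (log2 change 0.58, SE 0.15, limma adjusted p = 0.00708), and was not called without number 1 of either group (limma adjusted p up to 0.111). The C1 proteases that Serping1 blocks did not pass the test: C1ra was 27 and 25 in mCKO and 22 and 25 in CTR, and C1s1 was 46 and 42 in mCKO and 36 and 42 in CTR. C3 and Masp1 were each called in 4 of 8 other fits of all samples (limma adjusted p up to 0.62 in the rest). Depending on the adult sample left out, 6 to 8 complement genes were called higher, and over the other settings 0 to 6 were. In KO hearts 0 of 19 passed in limma, and 4 had an unadjusted p under 0.05, beside 13.9% of all tested genes. C3 was 8, 6 and 8 in KO hearts and 3, 6 and 2 in WT hearts.

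Serpina3n is known as a target of STAT3 and of glucocorticoids, and genes of these responses were read beside it. In the adult 3 of 25 tested rose and 1 fell (median log2 change 0.29, limma), beside 2.3% and 0.944% of all tested genes. Without number 1 of CTR 7 were called higher and 4 lower, and with median-of-ratios scaling 2 and 4 were. Timp1, an inhibitor of matrix metalloproteinases, was 11 and 13 in mCKO apex, against 3 and 1 in CTR apex (log2 change 2.20, SE 0.32, limma adjusted p = 4.51e-09). Its CTR values are near the bottom of the scale, and over the other fits of all samples its log2 change ran between 1.43 and 2.20. Lcn2, an iron-binding acute-phase protein, was 7 and 11 in mCKO, against 5 and 1 in CTR (log2 change 1.5, SE 0.33, limma adjusted p = 0.000561), and was not called without number 2 of CTR (limma adjusted p = 0.0594). Mt1, a metallothionein, was 250 and 329 in mCKO, against 248 and 168 in CTR (log2 change 0.49, SE 0.14, limma adjusted p = 0.0278), and was not called without number 2 of either group (limma adjusted p up to 0.384). Sgk1, a kinase induced by glucocorticoids, fell, with 46 and 56 in mCKO apex, against 83 and 74 in CTR apex (log2 change -0.62, SE 0.15, limma adjusted p = 0.00265), and was called in 4 of 8 other fits of all samples. Stat3 itself was 180 and 158 in mCKO, against 124 and 147 in CTR (limma adjusted p = 0.29), and its feedback inhibitor Socs3 was 6 and 10 in mCKO and 6 and 3 in CTR. The oncostatin receptor Osmr was 29 and 28 in mCKO, against 24 and 24 in CTR. In KO hearts 0 of 18 passed in limma, and 6 had an unadjusted p under 0.05, beside 13.9% of all tested genes. Stat3 was 240, 264 and 255 in KO hearts, against 185, 160 and 170 in WT hearts, and Socs3 was 13, 11 and 15 in KO, against 7, 8 and 4 in WT hearts, both without overlap (limma adjusted p = 0.106 and 0.0895).

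Genes that work with Serpinh1 on procollagen were higher in the adult mCKO where they passed the test, while Serpinh1 itself overlapped between the groups. Of 26 tested 3 rose and 0 fell (median log2 change 0.37, limma), beside 2.3% and 0.944% of all tested genes. Without number 2 of CTR 11 were called higher, without number 2 of mCKO 7 and without number 1 of CTR 5. Pcolce, an enhancer of procollagen cleavage, was 120 and 110 in mCKO apex, against 61 and 72 in CTR apex (log2 change 0.78, SE 0.15, limma adjusted p = 2.08e-05). Sparc, an extracellular collagen-binding protein, was 710 and 603 in mCKO, against 321 and 428 in CTR (log2 change 0.82, SE 0.14, limma adjusted p = 1.90e-06), and was called in 4 of 8 other fits of all samples. P4hb, a subunit of prolyl hydroxylase, was 288 and 269 in mCKO, against 185 and 204 in CTR (log2 change 0.52, SE 0.14, limma adjusted p = 0.0151). Ppib was 26 and 26 in mCKO and 22 and 22 in CTR, and Fkbp10 20 and 14 in mCKO and 12 and 16 in CTR; neither passed. Of 11 tested collagen chains, the clients of Serpinh1, 2 rose (Col4a1 and Col4a2, median of the list 0.99), beside 2.3% of all tested genes, and neither was called without number 1 of either group (limma adjusted p up to 0.518). The number of chains called was 10 without number 2 of CTR, 5 without number 1 of CTR, 0 without number 1 of mCKO, 0 without the replicate block or the rounding variance, and 6 with a prior without trend. Col3a1 was 543 and 373 in mCKO, against 39 and 208 in CTR, and Col1a1 245 and 163 in mCKO, against 25 and 107 in CTR; their spread between numbers was too wide to pass (limma adjusted p = 0.881 and 0.902). In KO hearts limma called 0 of 22 procollagen genes and 0 of 12 collagen chains, of which 5 and 3 had an unadjusted p under 0.05, beside 13.9% of all tested genes. P4hb was 518, 561 and 630 in KO hearts, against 503, 460 and 391 in WT hearts, and Fkbp10 143, 165 and 155 in KO, against 131, 108 and 118 in WT hearts, both without overlap.

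Of the reported receptors and partners of Serpinf1, Thbs1, another inhibitor of new vessels, rose in both models. It was 92, 94 and 98 in KO hearts, against 62, 61 and 56 in WT hearts (log2 change 0.66, SE 0.16, limma adjusted p = 0.0477), and 24 and 32 in mCKO apex, against 16 and 8 in CTR apex (log2 change 1.22, SE 0.19, limma adjusted p = 1.47e-07). The embryonic call was lost without number 1 or number 3 of either group (limma adjusted p up to 0.17) and in 4 of 8 other fits (up to 0.545). The adult call was lost without the replicate block, without the rounding variance and without both (limma adjusted p up to 0.62). No other of the 7 genes tested in the embryo or the 9 tested in the adult was called. Pnpla2, a lipase and reported receptor of Serpinf1, was 326 and 380 in mCKO apex, against 458 and 404 in CTR apex, and 50, 52 and 57 in KO hearts, against 50, 48 and 43 in WT hearts; it did not pass in either (limma adjusted p = 0.367 and 0.687).

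**Figure D3:**
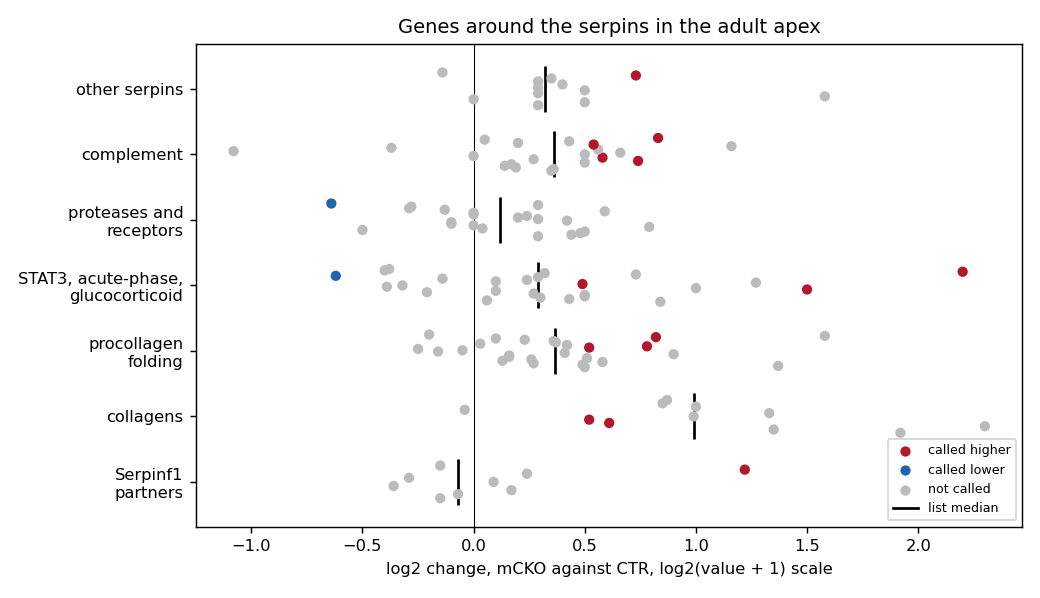
Log2 change in mCKO against CTR apex (x axis, log2(value + 1) scale) of every tested gene of the lists around the serpins; each point is a gene, coloured by its limma call, and the black line is the list median. The complement list has 4 genes called higher, the list of proteases and receptors has none called higher, and the collagen list has the highest median, 0.99.

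Summed levels of cell type markers were read beside these values, and no relation between them was computed. In the adult the summed level of 7 macrophage markers was 417 and 408 in mCKO, against 323 and 333 in CTR apex, with 6 of 7 positive and 1 called, where 62.3% of all tested genes were positive and 2.3% called higher. That of 6 epicardial markers was 55 and 87 in mCKO, against 49 and 17 in CTR, with 6 of 6 positive and 1 called. Fibroblast markers summed to 3031 and 2830 in mCKO and 2819 and 3022 in CTR, with 5 of 7 positive. Endothelial markers summed to 708 and 736 in mCKO, against 810 and 783 in CTR, with 0 of 6 positive. Cardiomyocyte markers summed to 55888 and 54887 in mCKO, against 57294 and 58291 in CTR, with 3 of 7 positive. Smooth muscle and pericyte markers summed to 1116 and 1122 in mCKO, against 1208 and 1204 in CTR, with 3 of 8 positive. Erythroid markers stood apart in single samples, with 1174 and 2663 in mCKO and 1371 and 119 in CTR. Neutrophil and hepatocyte markers summed to 7 or less in every adult sample, with S100a9, Ttr and Serpina1b at 0 or 1 throughout. In the embryo 4 of 7 fibroblast markers were listed, without Dcn, Lum and Tcf21. These 4 summed to between 2097 and 2503 in KO and between 1751 and 2156 in WT hearts. Of them 3 were positive and 1 was called higher, beside 60.7% and 0.478% of all tested genes. Of 4 smooth muscle and pericyte markers listed there 1 was called lower, beside 0.0955% of all tested genes. Embryonic stratified epithelium markers summed to 215 in KO number 1 and to 57 to 96 in the other hearts, and cardiomyocyte markers to between 14526 and 18168 in KO and between 18936 and 22578 in WT hearts. Erythroid markers reached 8308 in KO number 3 and 2229 in WT number 3, against 4082 to 6454 in the other embryonic hearts. Without KO number 1 or without KO number 3 the log2 changes of the embryonic serpins stayed positive, but without KO number 3 Serping1 had 0.08 and Serpinb6a 0.07. With the replicate block, leaving out a KO heart also takes the WT heart of its number out of the estimate. Fewer cells of a type and less RNA per cell cannot be told apart in whole tissue, and the part of these cell types in the serpin values was not tested.

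Levels in the control samples of both tables differed widely by gene. The tables were normalised separately, adult samples were apex and embryonic ones whole hearts, and no test was made between them. Serpina3n was 26 and 15 in the adult CTR apex, against 0, 0 and 1 in E15.5 WT hearts. Serping1 was 5.51 times as high in the adult controls by the ratio of means, Serpinf1 2.69 times and Serpinb6a 1.62 times. Serpinh1 and Serpine2 went the other way, with adult control means that were 0.14 and 0.142 times the embryonic ones. Among 5641 genes with a mean of at least 10 in both tables the median of this ratio was 0.545, and the range from the 5th to the 95th percentile ran between 0.146 and 2.33. By level the order for Serpine2 and Serpinh1 was KO, WT, mCKO and CTR, with both adult groups of Serpinh1 overlapping. For Serping1, Serpinf1, Serpina3n and Serpinb6a it was mCKO, CTR, KO and WT, and the embryonic groups overlapped for Serping1 and Serpina3n.

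**Figure D4:**
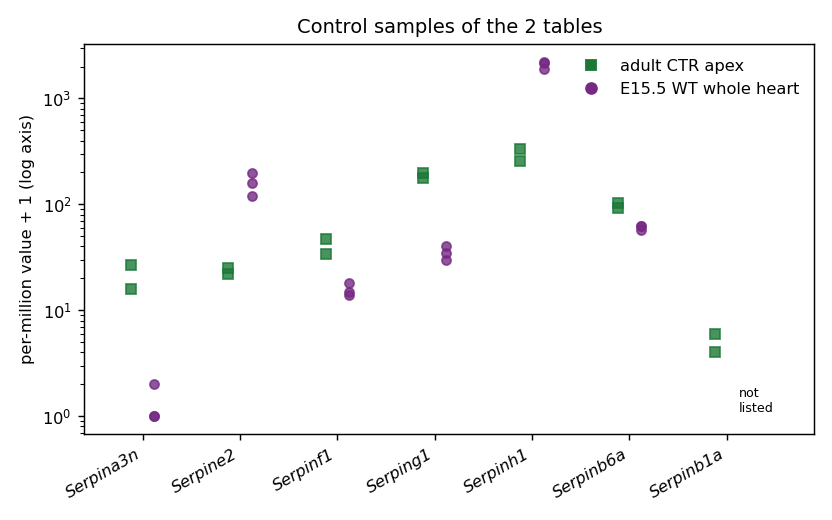
Per-million value plus 1 (y axis, log scale) of the 7 serpins in adult CTR apex (squares) and E15.5 WT hearts (circles); each point is a sample. Serpine2 and Serpinh1 are lower in the adult and Serpina3n, Serpinf1, Serping1 and Serpinb6a higher, across tables that were normalised separately.

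The genes whose profile was most like that of each serpin were found over all 10 samples, on log2(value + 1) centred within each table, among 5641 genes. The samples share their fixed totals, so a high r over so few points is a description. Serpinf1 was most like Mmp2, a gelatinase of the matrix (Pearson r = 0.997), then Baz2b and Pcyox1. Serpine2 was most like Pros1, protein S of the anticoagulant pathway (r = 0.998), then Mvp and Abcf1. Serping1 was most like Rabgef1 (r = 0.987), Serpinb6a most like Wipf1 (r = 0.986), Serpinh1 most like Bcl2l13 (r = 0.98) and Serpina3n most like Abhd12 (r = 0.96). Serpina3n itself misses the cut on the mean that the compared genes met. Its embryonic values were 0 to 2, so its match rests in part on rounding steps.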

How the data were processed

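Total RNA of whole embryonic hearts or adult apex was sequenced on Illumina libraries, per the labels' protocols. Per the submitters' processing notes, HISAT2 and HTSeq were used with mm10. The authors deposited a score per gene and sample in 1 table per model, per-million values rounded to whole numbers; the scaling is not stated in the sources at hand. Deposited tables also hold, per the file headers, a mean signal, log2 fold changes with SEs, and p-values of the authors' own comparison. Of these only log2 fold changes and their SEs are given, where named.

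Each table was fitted alone with limma 3.58.1 (R 4.3.3) on log2(value + 1), for genes reaching 1 in as many samples as a group holds, with the replicate number as a block, the variance of rounding (0.0833) added, eBayes with trend and robust options, and Benjamini-Hochberg adjustment at 0.05. Same-numbered samples deviated from their group means as mirror images (correlation across genes between -0.82 and -0.80), which follows from the fixed totals. Members, gene lists and settings were chosen with earlier results of these data known. Named genes were drawn from the members, the other serpins (not all of which are named), partners listed by name, and up to 3 called genes per list with a mean of at least 8. Likeness used Pearson r. Some called genes of the lists are counted but not reported here by name.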

Additional observations from a re-analysis of the deposited data

Results flagged for a closer look

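In 4 genes around the serpins every knockout sample lay on opposite sides of its controls at E15.5 and in the adult. Of all tested genes 19.3% lay wholly above and 8.75% wholly below their controls at E15.5, and 29.3% and 12.8% in the adult. The share of all genes with opposite sides was not counted, so nothing is read from the count of 4. Whether the models differ was not tested. Thbd, thrombomodulin, had a log2 change of 0.13 in KO hearts and -0.28 in mCKO apex. Tfpi, the tissue factor pathway inhibitor, had 0.41 and -0.13, and P4ha2, a prolyl hydroxylase subunit, 0.65 and -0.25. Col4a1, a basement membrane collagen, had -0.04 in KO hearts and 0.61 in mCKO apex. Only adult Col4a1 of these passed the test (limma adjusted p = 0.00302).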

How the results depend on the processing

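Over 165 refits of the serpins' log2 changes 162 were positive, 158 moved by less than the spread between samples, 7 by more, and 0 called values changed sign. Many of these refits could not move the estimate, so these counts do not measure stability. With all samples, dropping the block or the rounding variance, or changing the prior or the filter, leaves the log2 change as it was. At E15.5 leaving out either sample of a number gives the same estimate. Counts over all genes varied with the setting. At E15.5 65 genes were called higher and 13 lower. Without the replicate block there were 424 and 173, without the rounding variance (replicate block kept) 0 and 0, with neither 701 and 339, with a pseudocount of 4 195 and 36, with no filter 476 and 121, with a mean of at least 10 0 and 0, with median-of-ratios scaling 6 and 2, and with a prior without trend 0 and 0. Leaving out 1 sample gave 171 to 420 higher and 40 to 86 lower. In the adult 341 were called higher and 140 lower, without the rounding variance (replicate block kept) 833 and 297, with neither 1133 and 489, and 221 lower with median-of-ratios scaling. Leaving out 1 sample, with no replicate block since none could then be fitted with residual freedom, gave 614 higher and 222 lower without number 1 of CTR, 975 and 299 without number 2 of CTR, 383 and 225 without number 1 of mCKO, and 630 and 303 without number 2 of mCKO; the lone sample is assumed to vary like the other group. A crossed replicate block, chosen after seeing the data because same-numbered samples deviated in opposite directions, gave 4035 higher and 1839 lower. Of the 16 adult list genes called, 4 kept their call with no replicate block 0 without the rounding variance (limma adjusted p between 0.158 and 0.631), 1 with neither, and 3 with a prior without trend (up to 0.697). The cause was not tested. Rounding limits what values under about 10 can show, Serpinb1a, embryonic Serpina3n and the CTR values of Timp1 and Lcn2 among them. Over the other fits of all adult samples the log2 change of Lcn2 ran between 0.94 and 1.5.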
